A study of Mus musculus with 6 samples.

Results

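The striatin-PP2A complex, or STRIPAK, is a large assembly built around protein phosphatase 2A (PP2A), and 9 of its genes were followed here: Strn, Strn3, Strn4, Mob4, Strip2, Sike1, Slmap, Pdcd10 and Fgfr1op2. The rule lists them by name, as parts of the complex, and sets no threshold on their values. Each had at least 1 probe set on the array annotated to that gene alone, so all 9 were among the 19733 genes tested. Where a gene had several such probe sets, the one with the highest mean over the arrays was used.

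The cells were mouse bone marrow pre-B cells whose Ppp2r1a alleles are floxed (Ppp2r1afl/fl), which had been transduced with BCR-ABL1, the fusion kinase of Philadelphia chromosome-positive leukaemia. In the Cre group the cells also received Cre recombinase, which deletes floxed Ppp2r1a, and in the empty vector (EV) group they received a vector without it. Both groups carry the floxed alleles and BCR-ABL1, although the labels give the genotype of the EV arrays as wild type. There were 3 Affymetrix arrays per group, numbered as repeats. The sources used here do not say whether repeats were separate cultures or mice, whether transduced cells were selected, or when RNA was taken. A p-value below therefore sets a difference against the spread of 3 numbered arrays a group, part or all of which can be technical. No group had Cre in cells without floxed alleles, so an effect of Cre itself and one of losing Ppp2r1a cannot be told apart. Values are log2 expression levels, on which a difference of 1 is a doubling, and array medians lay between 5.22 and 5.27.

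PP2A is a serine/threonine phosphatase made of a scaffold A subunit, a catalytic C subunit and 1 of many exchangeable B subunits that choose its substrates. In STRIPAK the B subunit is a striatin, and the striatin gathers kinases and adaptors onto the same scaffold, so that a phosphatase and the kinases it restrains sit together. The complex is best known for keeping the Hippo kinases and the GCKIII kinases dephosphorylated, and it also takes part in Golgi positioning, cell polarity and blood vessel integrity. Ppp2r1a encodes the main form of the scaffold A subunit, which joins the catalytic subunit to the B subunit. The comparison of Cre with EV therefore bears on whether the messages of the remaining STRIPAK parts differ when that scaffold's message is reduced.

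The RNA of the scaffold itself was much lower in the Cre arrays, which checks the labels. Ppp2r1a read between 6.92 and 7.12 with Cre and between 9.05 and 9.06 with EV, a fall of 4.15-fold (limma adjusted p = 1.203e-05). The labelled cell type was also checked: the 10 pre-B markers tested read between 6.49 and 12.09, while 23 markers of T, myeloid, erythroid, megakaryocytic, stromal and endothelial cells read between 3.20 and 5.86. Probe sets differ in how brightly they read, and no detection calls were used, so this is a description and not a test of which cells were present. Of those 23, the collagen genes Col1a1 and Col1a2 were the 2 above the all-gene median of 5.25, and 0 passed the test. Of the 10 pre-B markers 2 fell, Rag1 and Dntt, which act in V(D)J recombination, and 0 rose. Over all genes 2.14% fell and 1.35% rose. An unadjusted limma p below 0.05 was found for 4 of the 10 markers, against 16.1% of all genes. Every Cre array read above every EV array for 2 of the 10 and below for 4. That is 6 of the 10 in either direction, the 2 called markers among them, against 22.5% of all genes. The panel's median standard error (SE) was 0.063 against 0.086 over all genes, and the part of error in these counts was not tested. The call of Dntt was lost in 5 of the 6 fits with 1 array dropped, all but that without Cre repeat 1 (highest limma adjusted p = 0.108). The part of these marker differences in the results below was not tested.

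No STRIPAK member passed the test of a difference between Cre and EV. At a limma p below 0.05 after Benjamini-Hochberg adjustment the count was 0 of 9, against 3.49% of all genes (689 of 19733; 1.35% higher in Cre and 2.14% lower). The members' adjusted p lay between 0.555 and 0.993. Also at an unadjusted p below 0.05 the count was 0 of 9, where 16.1% of all genes passed. For 0 of the 9 did the Cre and EV arrays stand apart without overlap, against 22.5% of all genes. The changes ran from -0.11 to 0.11 on the log2 scale, 4 of them positive and 5 negative, with a median of -0.03 beside -0.003 over all genes. That median lay between -0.06 and 0.01 in the 6 fits that each drop 1 array, so it has no settled sign. The median size of a change, without its sign, was 0.05 among the members and 0.09 over all genes. Of the 9 members, 1 had a mean level below the all-gene median, and the members' median SE was 0.077 against 0.086 over all genes. The part of level and error in this contrast was not tested. In RNA from whole cultures, fewer cells that express a gene and less RNA per cell cannot be told apart. The count over all genes was between 362 and 424 in the 6 fits that each drop 1 array (any of the 6), and that of the members was 0 in each.

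The promoters of the pair of members with the smallest p-values, Mob4 and Strn4, are shown because those genes had the most positive and the most negative change, though neither passed the test. They are the 250 bases before the annotated start, from RefSeq on build GRCm38.p6, both on the plus strand: Mob4 at chr1:55130995-55131244 and Strn4 at chr7:16815639-16815888. In Mob4 the capitals mark the GC box, GGGCGG or its reverse complement, which Sp and Klf factors can bind. In Strn4 the capitals mark a palindromic pattern, GTTNCNNNNGNAAC, which resembles the X-box that RFX factors bind.
Mob4: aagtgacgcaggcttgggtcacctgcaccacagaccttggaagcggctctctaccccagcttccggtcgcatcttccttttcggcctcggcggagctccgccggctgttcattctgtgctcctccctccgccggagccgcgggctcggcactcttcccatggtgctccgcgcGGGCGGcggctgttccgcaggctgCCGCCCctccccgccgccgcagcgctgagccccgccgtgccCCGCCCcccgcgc
Strn4: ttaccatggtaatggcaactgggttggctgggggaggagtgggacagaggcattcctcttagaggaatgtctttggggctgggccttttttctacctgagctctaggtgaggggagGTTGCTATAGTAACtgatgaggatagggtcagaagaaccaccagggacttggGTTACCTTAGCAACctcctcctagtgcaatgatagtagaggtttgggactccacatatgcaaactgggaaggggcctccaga

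The Strn4 window had 0 CpG dinucleotides and a GC content of 51.6%, while the Mob4 window had 30 CpG and 72.8% GC. Windows were found for 8 of the 9 members, 9 windows in all since Fgfr1op2 has a pair of overlapping starts, and apart from Strn4 they held between 11 and 30 CpG. Over all 32851 promoter windows the median was 6 CpG, and 7.87% had none. The GC box, searched on both strands, was present in 7 of the 9 member windows, both of Fgfr1op2 among them, and in 32.7% of all windows. GC content lay between 54.8% and 75.2% in the member windows other than Strn4, beside a median of 52.4% over all windows. Its part in the GC box share was not tested. CCAAT, the NF-Y box, was present in 4 of 9, again with both Fgfr1op2 windows, and in 33.8% of all. CCGGAA, the core that ETS factors read, was present in 2 of 9 and in 12.03% of all. CACGTG, the E-box that Myc and Max read, was present in 0 of 9 member windows and in 6.02% of all windows. The pattern GTTNCNNNNGNAAC, which was looked for after the Strn4 sequence had been read, occurs in 277 of all windows, or 0.843%. In Strn4 it begins 134 and 82 bases before the start. Strn4 was the 1 window of 32851 with 2 matches, but the pattern was chosen from that sequence. The count is therefore no measure of how rare such a window is. These matches describe letters in a window and are not binding sites.

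The striatins are the B subunits of the complex: their N-terminal parts dimerise and hold the A and C subunits, and their WD40 repeats carry other partners. Strn, on chromosome 17 as is Ppp2r1a, read 7.17, 7.04 and 6.97 in Cre and 7.04, 7.08 and 6.98 in EV. The highest and the lowest of these 6 values were both Cre arrays, so the EV arrays lay inside the Cre range. The change was 0.03 (SE 0.07; 95% interval -0.15 to 0.20; limma adjusted p = 0.919).

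Strn3, first described as the nuclear autoantigen SG2NA, had the least spread of the members. It read 7.24, 7.17 and 7.19 in Cre, and 7.19 in each of the 3 EV arrays (SD 0.0021, n = 3). The change was 0.01 (SE 0.06; 95% interval -0.13 to 0.15; limma adjusted p = 0.960). The end of that interval farthest from 0 is a 1.11-fold difference, the tightest bound among the 9.

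Strn4, or zinedin, had the most negative change. It read 6.64, 6.81 and 6.48 in Cre (6.64 ± 0.16; SD, n = 3) and 6.81, 6.79 and 6.66 in EV (6.75 ± 0.08). Cre repeat 2 was as high as the highest EV array, so the groups overlapped. The change was -0.11 (SE 0.10; 95% interval -0.33 to 0.11; limma adjusted p = 0.643). Without Cre repeat 3 it was -0.03, and without Cre repeat 2 it was -0.20. With the changes of Strn and Strn3 at 0.03 and 0.01, the 3 striatins had no common direction.

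**Figure D1:**
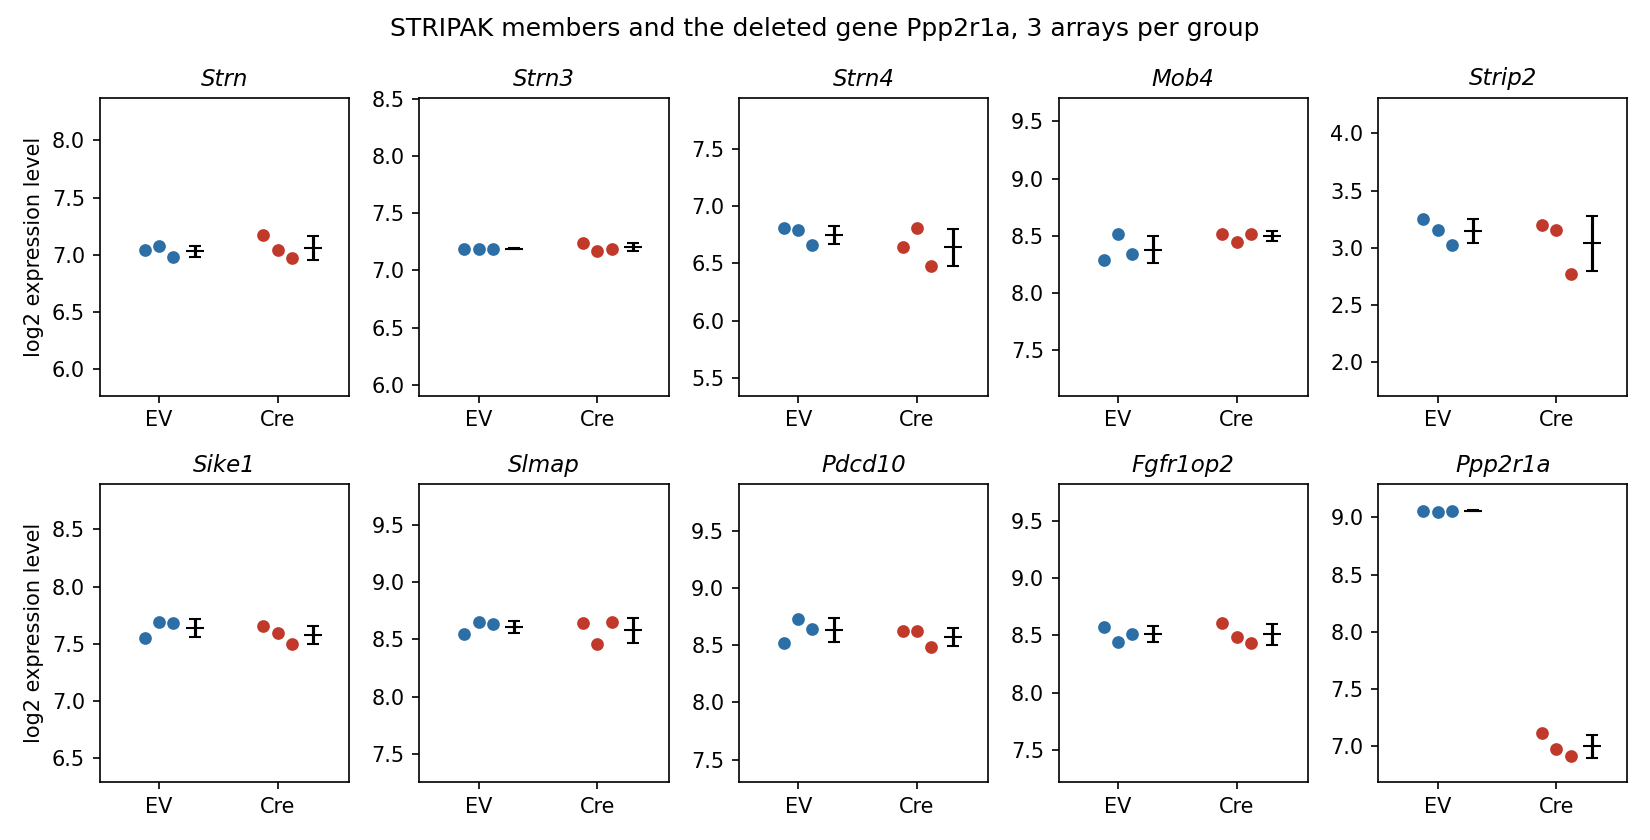
Log2 expression level of the 9 STRIPAK members and of Ppp2r1a in the 3 EV arrays (blue) and the 3 Cre arrays (red), with the group mean and SD in black; every panel spans the same height on the log2 axis, and levels are not comparable between panels. The EV and Cre points overlap for all 9 members, while those of Ppp2r1a do not.

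Mob4, the MOB family adaptor also called phocein, binds striatins and had the most positive change. It read 8.52, 8.45 and 8.52 in Cre (8.50 ± 0.04; SD, n = 3) and 8.29, 8.52 and 8.34 in EV (8.38 ± 0.12). EV repeats 1 and 3 lay below all Cre arrays, and EV repeat 2 lay level with the highest of them. The change was 0.11 (SE 0.08; 95% interval -0.07 to 0.30; limma adjusted p = 0.555). Without EV repeat 2 the change was 0.18, still short of the threshold at an adjusted p of 0.312. This was the lowest adjusted p of any member under any of the alternative settings tried.

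Strip2, a scaffold that binds striatins, was the one dim member. It read 3.20, 3.16 and 2.77 in Cre and 3.25, 3.16 and 3.03 in EV, and 11.1% of all genes had a lower mean over the 6 arrays. Cre repeat 3 was lower than the other 5 values. The change of -0.10 had the widest interval of the 9 (SE 0.12; 95% interval -0.39 to 0.18; limma adjusted p = 0.757), and without that array it was 0.03. No detection calls were used, so whether these values stand above background was not tested.

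Slmap, Sike1 and Fgfr1op2 form the arm of the complex that brings in the Hippo kinases: Slmap is anchored in membranes and its forkhead-associated domain binds the phosphorylated kinases, and the paralogues Sike1 and Fgfr1op2 link it to the striatins. Slmap read 8.64, 8.46 and 8.65 in Cre and 8.55, 8.65 and 8.63 in EV. Cre repeat 2 was the lowest of the 6, and without it the change of -0.03 (SE 0.08; 95% interval -0.21 to 0.15) became 0.04. Its limma adjusted p was 0.914.

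Sike1, first named as a suppressor of IKK-epsilon, read 7.66, 7.60 and 7.50 in Cre and 7.55, 7.69 and 7.68 in EV. The lowest value was in Cre and the highest in EV, with 2 Cre arrays above the lowest EV array. The change was -0.05 (SE 0.07; 95% interval -0.23 to 0.12; limma adjusted p = 0.796). Fgfr1op2 read 8.61, 8.49 and 8.43 in Cre and 8.57, 8.44 and 8.51 in EV. The 2 groups had the same mean to 2 decimals, 8.51, and the change of 0.003 was the smallest of the 9 (SE 0.08; 95% interval -0.17 to 0.18; limma adjusted p = 0.993). A difference between the changes of the 2 paralogues was not tested.

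Pdcd10, also called Ccm3, brings the GCKIII kinases into the complex, and loss of its human counterpart causes cerebral cavernous malformations. It was the one member with 2 probe sets. The brighter, 10489041, read 8.62, 8.62 and 8.48 in Cre and 8.52, 8.73 and 8.64 in EV, a change of -0.06 (SE 0.08; 95% interval -0.24 to 0.13; limma adjusted p = 0.790). The other, 10498771, read 7.57, 7.53 and 7.43 in Cre and 7.59, 7.22 and 7.34 in EV, a change of 0.12 (SE 0.10; 95% interval -0.11 to 0.36; limma adjusted p = 0.629). The signs were opposite, and both sets of arrays overlapped. Of the 10 probe sets with the closest numbers to 10489041, 9 belong to genes on chromosome 2 and 0 to genes on chromosome 3, where Pdcd10 lies. For 10498771, 9 of 10 belong to chromosome 3, and for the probe sets of the other 8 members 9 or 10 of 10 belong to the gene's own chromosome. Whether the brighter set measures Pdcd10 was not tested. It is the set that the rule takes, so counts, ranges and plots of the 9 members use it.

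The size of change that these arrays could have called can be read from each gene's error. The largest unadjusted p among the called genes was 0.00174, and at that p a member would have needed a change of at least 0.28 (Strn3) to 0.58 (Strip2) on the log2 scale. For the other 7 the size needed lay between 0.35 and 0.45. The 95% intervals ended short of this size. Their ends farthest from 0 corresponded to 1.11-fold for Strn3, 1.13-fold for Fgfr1op2, 1.15-fold for both Strn and Slmap, 1.17-fold for Sike1 and 1.18-fold for Pdcd10 by its brighter probe set. By the other Pdcd10 probe set the bound was wider, at 1.29-fold. They corresponded to 1.23-fold for Mob4, 1.26-fold for Strn4 and 1.31-fold for Strip2. These intervals are not adjusted for the number of genes, and smaller differences in either direction remain possible for each.

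**Figure D2:**
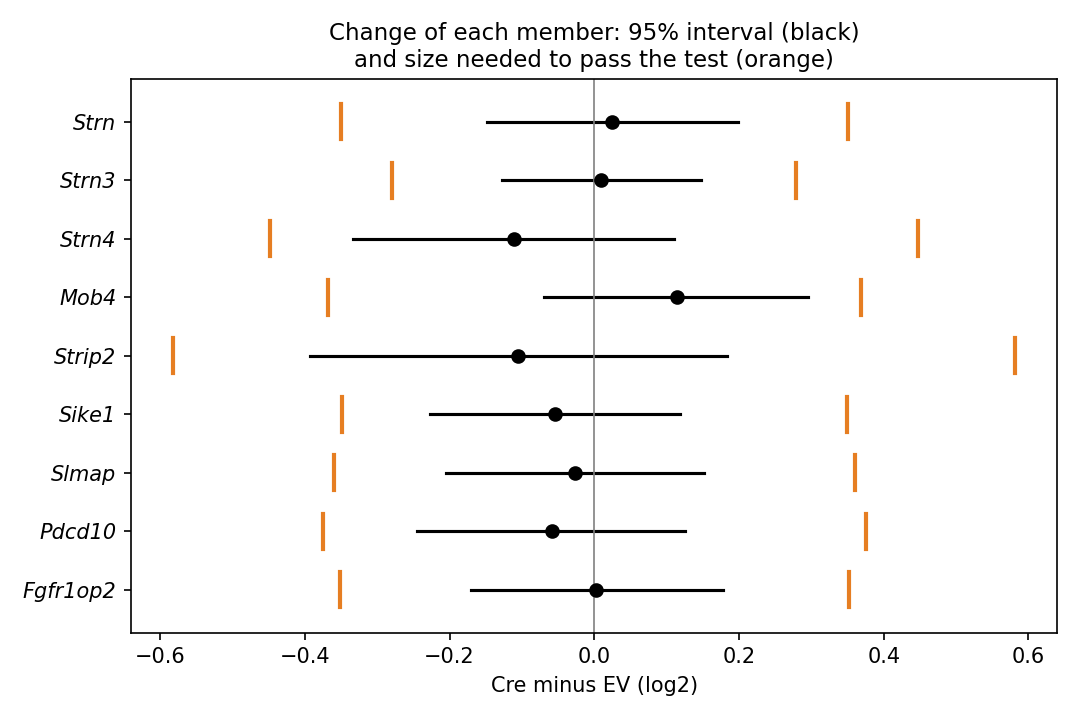
Change of each STRIPAK member, Cre minus EV on the log2 axis: the point is the estimate from limma, the black line its 95% interval and the orange ticks the size that would have passed the test over all genes. All 9 black lines cross 0, and none reaches an orange tick.

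The members' errors were slightly below those of other genes, with a median SE of 0.077 against 0.086 over all genes. Within the Cre group, repeat 1 held the highest value for 7 of the 9 members and repeat 3 the lowest for 6. Over all genes, repeat 1 held the highest value for 31.7% and repeat 3 the lowest for 34.1%. Within EV, repeat 2 was the highest for 6 of the 9, against 31.2% of all genes. Members on 1 array share its RNA and its hybridisation, so these counts are a description.

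The genes whose levels followed the pair with the smallest p most closely were found by Pearson's r over the 6 arrays, among 19732 genes. For Mob4 they were Gm5071 (r = 0.995), Vps26a, a subunit of the retromer (0.983), and Gm10654 (0.981). For Strn4 they were Htra1, a secreted serine protease (0.998), Npas3, a transcription factor (0.989), and Calr3, a calreticulin (0.986). Being the highest of so many over so few arrays, such values are high by selection, and 36 genes for Mob4 and 25 for Strn4 had an r above 0.95. Of these 6 genes, 0 passed the test between Cre and EV, and their changes lay between -0.14 and 0.25. Gm5071, Htra1 and Npas3 read between 3.02 and 3.72, below the lower quartile of gene means, 3.96. Calr3 and Gm10654 read between 4.13 and 5.18, below the all-gene median of 5.25, and Vps26a between 7.11 and 7.28. Whether the dim ones stand above background was not tested.

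Related genes, from the same complex, the pathways it acts on and the competing B subunits, were taken in 5 lists. Of their 54 genes 49 were tested, and 1 rose and 2 fell, the deleted Ppp2r1a among the latter. Over all genes 1.35% rose and 2.14% fell, and the counts of each list below are to be read beside those shares. In the list of other core subunits 1 of 6 fell and 0 rose, the 1 being the deleted Ppp2r1a (median change of the list 0.04). Ppp2r1b, the other scaffold isoform, differed by 0.11 (SE 0.09; 95% interval -0.10 to 0.32). Ppp2ca, the main catalytic subunit, read higher in all 3 Cre arrays than in any EV array, but the change was 0.08 (SE 0.06; limma adjusted p = 0.595). Such a lack of overlap was seen in 2 of the 6 core genes, Ppp2r1a included, and in 22.5% of all genes. Ppp2cb, the second catalytic isoform, differed by -0.02 (SE 0.07).

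Among the GCKIII kinases that Pdcd10 recruits and their partners, 0 of 6 passed in limma, with a median of -0.01. The unadjusted p was below 0.05 for 1 of 6, against 16.1% of all genes. Stk25, a kinase of Golgi organisation, came closest: it read 7.43, 7.40 and 7.37 in Cre and 7.56, 7.56 and 7.61 in EV. All 3 Cre arrays lay below the EV arrays, and the change was -0.17 (SE 0.06; limma adjusted p = 0.213). The groups stood apart in this way for 1 of the 6 genes, against 22.5% of all genes in either direction. Stk26 differed by 0.12 (SE 0.12; limma adjusted p = 0.720). Krit1 and Ccm2, which join Pdcd10 in the cerebral cavernous malformation complex, each differed by -0.01 (SE 0.07 and 0.08).

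Of 15 Ste20 and Hippo pathway kinases and adaptors tested, which include substrates of the Slmap arm, 1 rose and 0 fell, with a median of 0.03. The 1 was Map4k1, the haematopoietic kinase HPK1 that restrains antigen receptor signalling. It read 8.53, 8.48 and 8.45 in Cre and 8.03, 8.03 and 8.08 in EV, 1.36-fold higher in Cre (change 0.44, SE 0.06; limma adjusted p = 0.00866). An unadjusted limma p below 0.05 was found for 2 of the 15 genes, against 16.1% of all genes. Beside Map4k1 this was Taok3, with a change of 0.15 (SE 0.06, limma adjusted p = 0.2635). Stk4, the Hippo kinase MST1 and a direct ligand of Slmap, differed by -0.02 (SE 0.07; 95% interval -0.17 to 0.13), and its relative Stk3 was not matched to a gene tested here. Lats1 and Lats2, the next kinases of the pathway, differed by 0.03 (SE 0.07) and 0.07 (SE 0.08).

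At the transcriptional end of the pathway, 1 of 11 genes fell and 0 rose, with a median of 0.02 (-0.03 to 0.08 with 1 array left out). The 1 was Tead1, a DNA-binding partner of YAP, which read 5.20, 5.14 and 5.31 in Cre and 7.53, 7.30 and 7.54 in EV, a fall of 4.71-fold (limma adjusted p = 2.105e-05). Its second probe set averaged 4.76 in Cre and 6.40 in EV, a fall of 3.12-fold. An unadjusted limma p below 0.05 was found for 2 of the 11 genes, against 16.1% of all genes. Beside Tead1 this was Tead2, with a change of 0.22 in the other direction (SE 0.09, limma adjusted p = 0.2695). Yap1 itself averaged 4.46 with EV and 4.52 with Cre, and 9 of the 11 genes of this list had a mean below the all-gene median. Ccn1 and Ccn2, which YAP and TEAD factors typically switch on, differed by 0.02 (SE 0.10) and 0.12 (SE 0.07).

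The other B subunits of PP2A, which compete with striatins for the A and C subunits, were likewise without a call. Of 11 tested in the B, B' and B'' families, 0 passed in limma, with a median of 0.05 and changes from -0.17 to 0.17. The unadjusted p was below 0.05 for 1 of 11, against 16.1% of all genes. Ppp2r2d differed by 0.17 (SE 0.07; limma adjusted p = 0.266) and Ppp2r2b by 0.16 (SE 0.09; limma adjusted p = 0.441). The difference between the 2 families of changes was not tested.

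**Figure D3:**
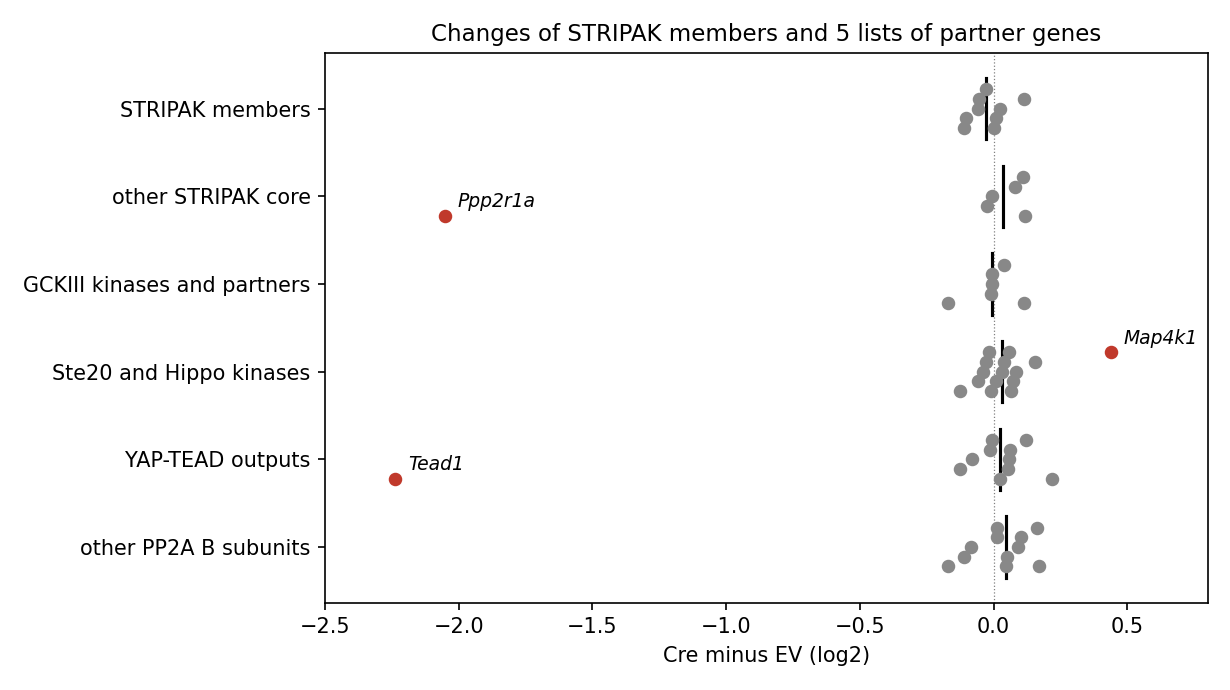
Change of each tested gene, Cre minus EV on the log2 axis, for the STRIPAK members and 5 lists of related genes. Red points passed the limma test, grey points did not, and the black bar is the list's median (vertical offsets within a list only separate points). Ppp2r1a at -2.05 and Tead1 at -2.24 lie far left, Map4k1 at 0.44 lies right, and all members lie between -0.11 and 0.11.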

How the data were processed

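The values are log2 expression levels of 25006 probe sets on 6 arrays as deposited by the authors, made with RMA (version not given in the sources used here) per the submitters' processing notes. RMA corrects background, normalizes by quantiles and summarises probes. Quantile normalization hides a change of the whole transcriptome, so each change is relative to other genes. Platform annotation gave 1 symbol to 21467 probe sets. Of these, 21386 were matched by gene identifier to RefSeq (GRCm38.p6). Probe sets with several symbols or none were left out.

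Cre and EV were compared with limma 3.58.1 in R 4.3.3 (lmFit, eBayes, no block, no filter) over 19733 genes with Benjamini-Hochberg adjustment, and the script was tested on simulated data. Intervals use limma's moderated SE. The number of arrays limits the precision. Members, lists and tests were chosen with earlier results of these data known. All members were named, then Ppp2r1a, and of each list the called genes or, with none called, the pair with the smallest p. Ppp2r1b, Ppp2ca, Ppp2cb, Krit1, Ccm2, Stk4, Taok3, Lats1, Lats2, Yap1, Tead2, Ccn1, Ccn2, Col1a1 and Col1a2 were named after their values were seen. Alternatives were a replicate block, other normalization, centring, filters, eBayes settings, array weights, probe averaging and leaving out each array. Tables were made with Python 3.11.15.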

Additional observations from a re-analysis of the deposited data

How the results depend on the processing

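Under the 14 settings planned, and for Pdcd10 its other probe set (chosen after seeing the data), 0 of 125 values of the 9 members passed the test. Signs of such small changes turned in 9 of the 125, in 6 members. For Pdcd10 the change was 0.03 with probe sets averaged and 0.12 with the other probe set; the 2 sets differ in sign. With 1 array left out, the change ranged from -0.03 to 0.07 for Strn, -0.01 to 0.03 for Strn3, -0.20 to -0.03 for Strn4, 0.07 to 0.18 for Mob4, -0.18 to 0.03 for Strip2, -0.10 to -0.01 for Sike1, -0.06 to 0.04 for Slmap, -0.11 to -0.01 for Pdcd10, -0.05 to 0.04 for Fgfr1op2 and -0.02 to 0.21 for Stk26. The same fits gave medians from -0.06 to 0.01 for the members, -0.03 to 0.08 for the YAP-TEAD list, -0.02 to 0.06 for the other core subunits and -0.01 to 0.04 for the Ste20 and Hippo kinases. They gave 138 to 169 genes that rose and 215 to 270 that fell, against 267 and 422. The counts were 537 and 758 without the lowest 50% of genes by mean level, and 640 and 918 with trend and robust eBayes. The cause was not tested. Without the lowest 50%, the YAP-TEAD list's median was -1.13, as 2 of its genes are left. With the replicate number as a block, 157 genes rose, 268 fell and 0 members passed. The numbers were not taken as pairs because the labels do not say that they pair cultures. Same-numbered arrays did not deviate together from their group means (r of 0.01, -0.01 and 0.03), which cannot show whether cultures were paired. Ppp2r1a, Tead1 and Map4k1 kept their calls in every setting tried, the highest adjusted p being 0.0473, for Map4k1. Strip2 has no value without the lowest 25% or 50% of genes.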
